A study of Zea mays with 12 samples.

Results

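PDI-2 (Zm00001d005866) and Derlin 1 (Zm00001d010368) stand for oxidative folding and for ER-associated degradation (ERAD) among the UPR genes with a full locus identifier in the sources. They were chosen by identifier, with earlier results of these data known, and are 2 of the 39498 genes in the count table. Both passed the filter on low counts in RNAseq and in ribo-seq. RNA and ribosome-protected fragments (RPFs) were counted in seedling roots of the maize inbred B73 held for 0, 6 or 12 hr in tunicamycin (TM) at 5 µg/ml. Duplicate lysates were taken at each time, and an RNAseq and a ribo-seq library were made from each of the 6. The 0 hr roots were the untreated state, and no mock roots were analysed here. TM, which was given in DMSO per the methods, therefore cannot be told apart from DMSO or from the hours spent in liquid. The labels put the seedlings at 7 days of age, younger than the methods do. In whole roots, more mRNA per cell and more cells with the mRNA cannot be told apart.

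TM blocks N-glycosylation, and proteins that lack their glycans tend to misfold in the ER. Protein disulfide isomerases are thioredoxin-like enzymes of the ER lumen that form and rearrange the disulfide bonds of secretory proteins. Derlins are ER membrane proteins that, as known from yeast and mammals, serve the export of misfolded proteins to the cytosol for breakdown by the proteasome. Genes for both steps are classic targets of the UPR in plants. An RPF is the stretch of mRNA that a ribosome shields from nuclease, so the RPFs of a lysate set against its RNA, a ratio known as translation efficiency, compare ribosome occupancy with mRNA abundance.

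The primers made for these mRNAs are shown because they are the stretches of sequence that the sources tie to the members. They are given 5′ to 3′ as ordered oligos, in lower case, and their positions in the mRNAs were not mapped here.
PDI-2 forward: gcaagtacaaggtggaagg
PDI-2 reverse: ccaactgctccaatgcaaag
Derlin 1 forward: tggtgccatctcactattgg
Derlin 1 reverse: ctctcggctccagacat

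Library totals ran from 2019128 to 9861654 counts in RNAseq and from 1667094 to 12328304 in ribo-seq. A pair of scales was used side by side. CPM give the counts of a gene per 1000000 counts of the library, and counts per 100 actin counts divide by actin (Zm00001d013873), the cytoskeletal gene that the methods name as the standard. Actin had 59 to 445 counts in a library. In RNAseq it was at 29.2 and 42.9 CPM at the start and at 29.2 and 22.0 CPM after 12 hr. In ribo-seq it was at 29.3 and 52.3 CPM at the start and at 40.2 and 36.1 CPM after 12 hr. Values per actin are thus 1 choice of scale among several, and they move whenever actin moves.

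PDI-2 mRNA was several times more abundant at 6 hr than at 0 hr, and at 12 hr it was near its 6 hr level in CPM. The RNAseq libraries of 0 hr held 66 and 274 PDI-2 counts, those of 6 hr 2000 and 774, and those of 12 hr 1479 and 802. This came to 32.7 and 51.8 CPM for 0 hr, 203 and 195 CPM for 6 hr, and 213 and 166 CPM for 12 hr. Per 100 actin counts they were 112 and 121, then 551 and 600.0, then 729 and 757. On both scales the 6 and 12 hr libraries lay above both 0 hr libraries, and the 6 and 12 hr libraries overlapped in CPM but not per actin. Such an order is common: 20.8% of the 23721 genes tested for RNA had both 6 hr libraries above both 0 hr libraries in CPM and 19.9% per actin. For 12 against 0 hr these shares were 19.6% and 41.5%, and per actin 48.3% of genes had both 12 hr libraries above both 6 hr libraries.

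Derlin 1 mRNA followed the same course with a wider gap between the 0 hr duplicates. Its RNAseq counts were 91 and 142 before TM, 1421 and 532 after 6 hr, and 1068 and 605 after 12 hr. This came to 45.1 and 26.9 CPM for 0 hr, 144 and 134 CPM for 6 hr, and 154 and 125 CPM for 12 hr. Per 100 actin counts they were 154 and 62.6, then 391 and 412, then 526 and 571. All 4 later libraries of each member lay above both 0 hr libraries, and the plot of levels by time shows the flat course from 6 to 12 hr in CPM beside the higher 12 hr values per actin.

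**Figure D1:**
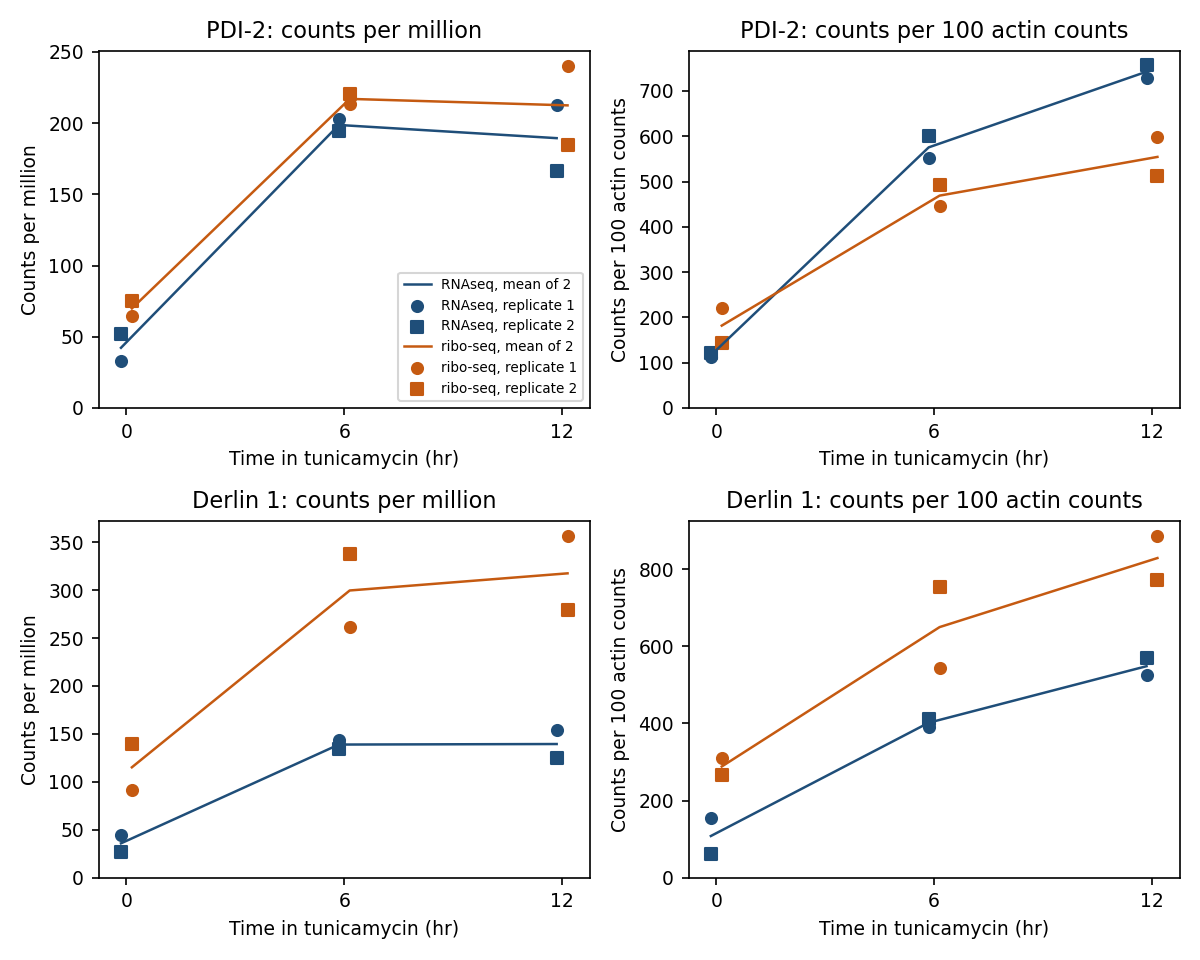
Levels of PDI-2 (top) and Derlin 1 (bottom) by time in TM, in CPM (left) and counts per 100 actin counts (right). Each point is 1 library (circles replicate 1, squares replicate 2, RNAseq blue, ribo-seq orange) and lines join the means of 2. In CPM, PDI-2 RNA goes from 32.7 and 51.8 to 203 and 195 by 6 hr and is 213 and 166 at 12 hr.

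Between neighbouring time points, changes in RNA passed the test only from 0 to 6 hr, and for Derlin 1 this depended on the scale. PDI-2 rose 4.93-fold over this interval with actin scaling (log2 2.30, standard error 0.31, edgeR's adjusted p = 0.00360 over 23721 genes) and 4.60-fold with total counts (log2 2.20, standard error 0.24, edgeR's adjusted p = 0.00373). Derlin 1 had a log2 change of 1.94 with actin scaling (standard error 0.39, edgeR's adjusted p = 0.104) and rose 3.98-fold with total counts (log2 1.99, standard error 0.25, edgeR's adjusted p = 0.0111). So 1 of the 2 members was called with actin scaling, where 0.0885% of all genes were called higher. With total counts 2 of 2 were called, where 0.131% of all genes were called higher. The Derlin 1 value rests on the 0 hr libraries: with actin scaling it was 2.68 without 0 hr replicate 1 (edgeR's adjusted p = 3.15e-06, with 179 of 24953 genes called higher) and 1.38 without 0 hr replicate 2 (edgeR's adjusted p = 0.0613).

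From 6 to 12 hr, neither mRNA passed the test on any scale. The log2 change of PDI-2 was 0.37 with actin scaling (standard error 0.29, edgeR's adjusted p = 0.639) and -0.07 with total counts (standard error 0.22, edgeR's adjusted p = 1.00). That of Derlin 1 was 0.45 with actin scaling (standard error 0.37, edgeR's adjusted p = 0.641) and 0.01 with total counts (standard error 0.23). The median change of all genes was 0.45 with actin scaling and -0.01 with total counts. Set against this median, PDI-2 was at -0.08 and Derlin 1 at 0.00 with actin scaling, so the higher values per actin at 12 hr were the size of those of the middle gene. In RNA, 0% of genes passed with either scaling. With actin scaling 1167 genes had an unadjusted p under 0.05 in edgeR, and DESeq2 called 2 genes with the actin factors and 11 with its own size factors.

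Over the whole course, from 0 to 12 hr, both members were called higher in RNA on both scales. Of all genes, 0.278% were called higher with actin scaling and 0.19% with total counts. With total counts the rise was 4.39-fold for PDI-2 (log2 2.13, standard error 0.24, edgeR's adjusted p = 0.00337) and 4.00-fold for Derlin 1 (log2 2.00, standard error 0.25, edgeR's adjusted p = 0.00867). With actin scaling PDI-2 rose by 2.67 on the log2 scale (standard error 0.32, edgeR's adjusted p = 0.000669) and kept its call in each of the 6 fits that leave out 1 library, at 2.62 to 2.73. The Derlin 1 rise with actin scaling (log2 2.39, standard error 0.40, edgeR's adjusted p = 0.0133) was lost without either 12 hr library, at an adjusted p of 0.0738 (replicate 1 left out) and 0.0526 (replicate 2 left out) in edgeR, with log2 changes of 2.45 and 2.33. Leaving out a 0 hr library moved it to 3.13 (replicate 1) or 1.83 (replicate 2).

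The early and the late interval were also set against each other in 1 contrast, chosen after the values had been seen. With total counts the log2 change in RNA from 0 to 6 hr exceeded that from 6 to 12 hr by 2.27 for PDI-2 (standard error 0.38, edgeR's unadjusted p = 7.76e-05, adjusted p = 0.142) and by 1.99 for Derlin 1 (standard error 0.40, edgeR's unadjusted p = 0.000371, adjusted p = 0.352), and 0.0169% of genes passed in this direction. With actin scaling the excess was 1.93 and 1.49 (edgeR's adjusted p = 1.00 for both), and 0.00422% of genes passed in this direction. The difference between the intervals thus did not pass the adjusted threshold for either mRNA.

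RPFs of both genes were also higher by 6 hr, at fitted factors under those of the mRNA, a difference that was tested as translation efficiency. The ribo-seq libraries of 0 hr held 211 and 439 PDI-2 counts, those of 6 hr 356 and 1656, and those of 12 hr 735 and 2275. This came to 64.5 and 75.3 CPM for 0 hr, 214 and 221 CPM for 6 hr, and 240 and 185 CPM for 12 hr. Per 100 actin counts they were 220 and 144, then 445 and 493, then 598 and 511. Both 6 hr libraries lay above both 0 hr libraries on each scale, as they did in 14.6% of the 20414 genes tested for RPFs in CPM and 4.71% per actin. The 12 hr libraries lay on both sides of the 6 hr libraries in CPM and above them per actin, the latter like 35.4% of genes.

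Derlin 1 RPFs took the same course as those of PDI-2. Its ribo-seq counts were 298 and 813 before TM, 436 and 2535 after 6 hr, and 1088 and 3439 after 12 hr. This came to 91.1 and 139 CPM for 0 hr, 262 and 338 CPM for 6 hr, and 356 and 279 CPM for 12 hr. Per 100 actin counts they were 310 and 267, then 545 and 754, then 885 and 773. The 6 and 12 hr libraries overlapped in CPM, and all 4 lay above both 0 hr libraries. For 12 against 0 hr the same order was found in 15.4% of genes in CPM and 10.3% per actin.

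The RPF calls depend on the scale. From 0 to 6 hr, PDI-2 rose 3.10-fold in RPFs with total counts (log2 1.63, standard error 0.23, edgeR's adjusted p = 0.0254 over 20414 genes), and its log2 change with actin scaling was 1.37 (standard error 0.46, edgeR's adjusted p = 0.346). Derlin 1 had 1.38 with total counts (standard error 0.26, edgeR's adjusted p = 0.131) and 1.17 with actin scaling (standard error 0.45, edgeR's adjusted p = 0.726). So 1 of the 2 members was called with total counts, against 0.0686% of all genes, and 0 of 2 with actin scaling, against 0.0637%, although both had an unadjusted p under 0.05 there (0.00288 and 0.00903 in edgeR). DESeq2 called neither with the actin factors, where it called 0.0294% of genes higher, and both with its own size factors, where it called 0.265%. With actin scaling edgeR took the spread of each gene in RPFs wholly from that shared over genes, so the members' own duplicates hardly enter those p-values.

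From 6 to 12 hr the RPFs of neither member passed the test. With total counts, 0% of genes were called higher. The log2 change there was -0.03 for PDI-2 (standard error 0.22) and 0.08 for Derlin 1 (standard error 0.25), both at an adjusted p of 1.00 in edgeR. With actin scaling, 0.0441% of genes were called higher. The values were 0.24 and 0.35 (standard errors 0.45 and 0.44), beside a median of 0.29 over all genes. From 0 to 12 hr with total counts, PDI-2 rose 3.03-fold (log2 1.60, standard error 0.23, edgeR's adjusted p = 0.0155), and 0.147% of all genes were called higher. Derlin 1 had a log2 change of 1.46 there (standard error 0.26, edgeR's adjusted p = 0.0613).

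With actin scaling from 0 to 12 hr, 0.137% of all genes were called higher in RPFs. There the RPF changes of both members did not pass the threshold (log2 1.61 and 1.52, standard errors 0.46 and 0.45). Both passed it without 0 hr replicate 1, at 1.94 for PDI-2 (edgeR's adjusted p = 0.00517) and 1.64 for Derlin 1 (edgeR's adjusted p = 0.0168), in a fit that called 176 of 22709 genes higher. In the contrast of the early with the late interval, the RPF excess was 1.67 for PDI-2 and 1.30 for Derlin 1 with total counts (edgeR's adjusted p = 0.724 and 1.00) and 1.13 and 0.83 with actin scaling (edgeR's adjusted p = 0.982 for both). In each of these fits 0.0196% of genes passed in this direction.

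**Figure D2:**
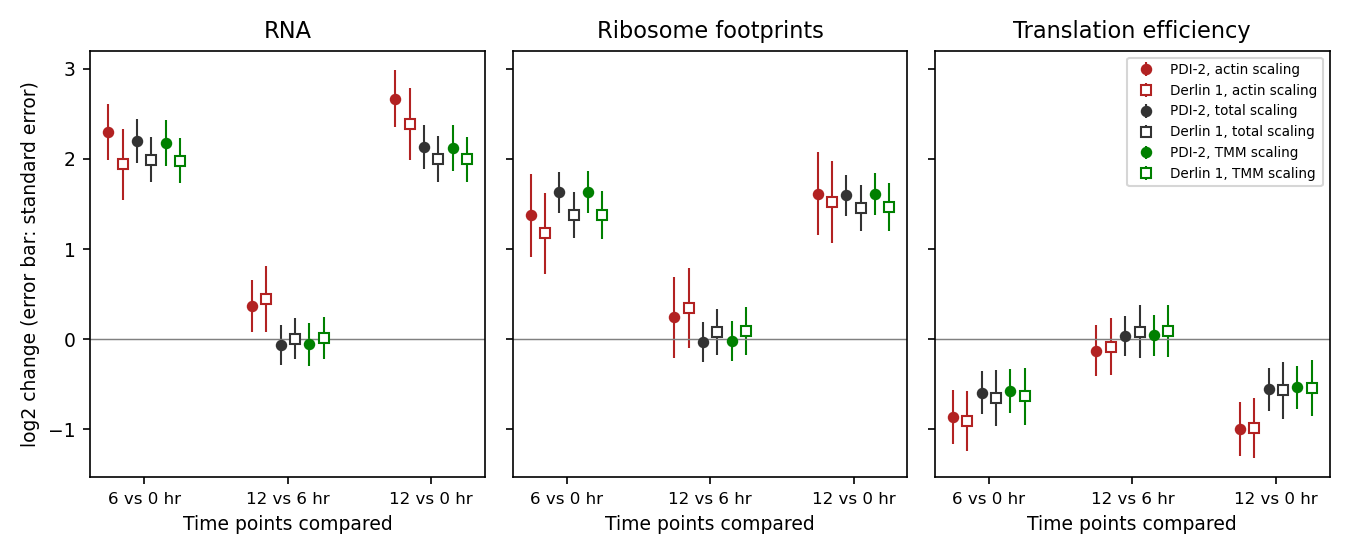
Fitted log2 changes (y axis) of PDI-2 (filled circles) and Derlin 1 (open squares) in RNA, RPFs and translation efficiency for each pair of time points (x axis), with actin (red), total count (black) and TMM (green) scaling. Bars are standard errors from edgeR. The changes from 6 to 12 hr lie between -0.13 and 0.45, and those from 0 to 6 hr in translation efficiency between -0.91 and -0.58.

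The ratio of RPFs to RNA was lower in the 6 hr than in the 0 hr lysates for PDI-2 on each of 5 scales. In CPM and per actin the ratio was about as low in the 12 hr lysates. In CPM, the PDI-2 ratio was 1.97 and 1.45 for the lysates of 0 hr, 1.05 and 1.13 for those of 6 hr, and 1.13 and 1.11 for those of 12 hr. Counting error alone put the 0 hr ratios between 1.49 and 2.64 for replicate 1 and between 1.25 and 1.69 for replicate 2 (95% exact interval), and the highest upper limit among the later lysates was 1.24. Per actin the PDI-2 ratio was 1.96 and 1.19 for the lysates of 0 hr, 0.808 and 0.821 for those of 6 hr, and 0.820 and 0.676 for those of 12 hr. All 4 later lysates lay below both 0 hr lysates on both scales. The CPM mean was 1.71 ± 0.368 (SD, n = 2) for 0 hr, 1.09 ± 0.0567 for 6 hr and 1.12 ± 0.0136 for 12 hr.

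For Derlin 1 the same reading hung on a single lysate. In CPM its ratio was 2.02 and 5.19 for the lysates of 0 hr, 1.82 and 2.52 for those of 6 hr, and 2.32 and 2.23 for those of 12 hr. Replicate 1 of 0 hr lay within the range of the 4 treated lysates, and replicate 2 of 0 hr lay above all of them. The 95% exact counting interval of 0 hr replicate 2 in CPM, 4.34 to 6.25, did not reach that of replicate 1, 1.59 to 2.58. Per actin the ratio was 2.01 and 4.26 for the lysates of 0 hr, 1.39 and 1.83 for those of 6 hr, and 1.68 and 1.35 for those of 12 hr. Here all 4 treated lysates lay below both 0 hr lysates. The 95% exact counting intervals of 0 hr replicate 1, 1.59 to 2.57, and of 6 hr replicate 2, 1.67 to 2.01, overlapped per actin. These intervals leave out the counting error of actin, which had 59 RNAseq and 96 ribo-seq counts in 0 hr replicate 1. Among all 20055 genes with a tested ratio, the pair of 12 hr lysates was below the pair of 0 hr lysates in 17.8% in CPM and 45.8% per actin.

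**Figure D3:**
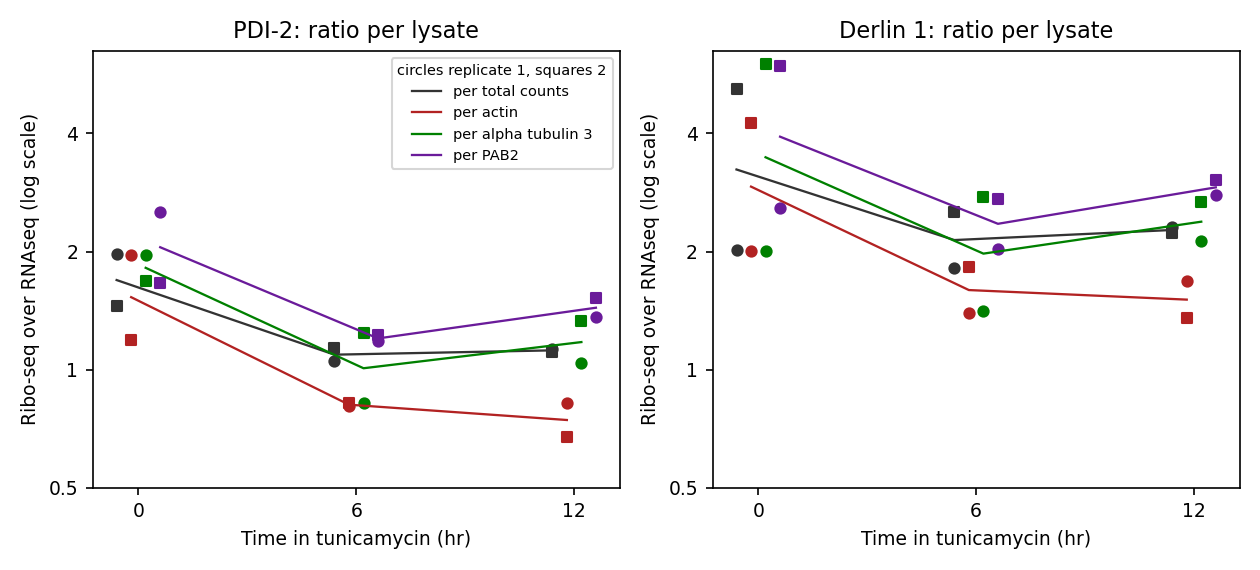
Ratio of ribo-seq to RNAseq values per lysate (y axis, log scale) by time in TM (x axis) for PDI-2 (left) and Derlin 1 (right), per total counts, actin, alpha tubulin 3 and PAB2. Points are lysates (circles replicate 1, squares replicate 2) and lines join geometric means. PDI-2 in CPM is at 1.97 and 1.45 at 0 hr against 1.05 to 1.13 later, while Derlin 1 is at 2.02 and 5.19 at 0 hr against 1.82 to 2.52.

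Because the ratio depends on the scale, it was also taken per alpha tubulin 3 (Zm00001d013367), a cytoskeletal gene, with TMM factors, and per PAB2, which binds poly(A) tails (Zm00001d005276). Over the 5 scales the mean log2 ratio of PDI-2 at 6 hr less that at 0 hr was -0.91 to -0.61, and in 5 of 5 scales the lysates of the time points did not overlap. For Derlin 1 the difference was -0.88 to -0.58, with no overlap in 1 of 5 scales, per actin. An order like that of PDI-2 was common: both 6 hr lysates were below both of 0 hr in 18.0% of genes in CPM, 16.6% with TMM, 34.9% per actin, 24.9% per alpha tubulin 3 and 26.5% per PAB2. Between 6 and 12 hr the difference was -0.13 to 0.26 for PDI-2 and -0.08 to 0.31 for Derlin 1, below 0 only per actin for each of them. Both members had higher ratios in both 12 hr lysates than in both 6 hr lysates per PAB2 only, like 32.0% of genes.

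The model of translation efficiency joins all 12 libraries with the lysate as a term. Without the replicate number as a block, neither member passed the test in it at any time. From 0 to 6 hr the log2 change with actin scaling was -0.87 for PDI-2 (standard error 0.30, edgeR's unadjusted p = 0.00903, adjusted p = 0.649) and -0.91 for Derlin 1 (standard error 0.33, edgeR's unadjusted p = 0.0128, adjusted p = 0.649). With total counts it was -0.59 (standard error 0.24, unadjusted p = 0.0201 in edgeR) and -0.65 (standard error 0.31, unadjusted p = 0.0509 in edgeR), both at an adjusted p of 0.999. From 6 to 12 hr it was -0.13 and -0.08 with actin scaling (standard errors 0.28 and 0.31) and 0.04 and 0.08 with total counts (standard errors 0.22 and 0.29). The point estimates therefore place the lower ratio in the first 6 hr, without a call.

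From 0 to 12 hr translation efficiency changed by a log2 value of -1.0 for PDI-2 with actin scaling (standard error 0.30, edgeR's unadjusted p = 0.00328, adjusted p = 0.258) and -0.99 for Derlin 1 (standard error 0.33, edgeR's unadjusted p = 0.00719, adjusted p = 0.273). With total counts it was -0.56 for PDI-2 (standard error 0.23, unadjusted p = 0.0269 in edgeR) and -0.57 for Derlin 1 (standard error 0.31, unadjusted p = 0.0829 in edgeR). In these fits, 0 of the 20055 genes (0%) passed in edgeR with either scaling in any interval, while with actin scaling and no filter on low counts 40 genes passed from 0 to 12 hr, the members not among them. With actin scaling 1511 genes had an unadjusted p under 0.05 from 0 to 6 hr, 336 from 6 to 12 hr and 3031 from 0 to 12 hr, and DESeq2 with the actin factors called 1, 0 and 11 genes in turn and 0 with its own factors. With actin scaling and the replicate number as a block, both members passed from 0 to 12 hr (edgeR's adjusted p = 0.0312 for PDI-2 and 0.0448 for Derlin 1). That fit called 354 of 20055 genes lower, and no source pairs lysates of different time points by number.

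The value from 0 to 6 hr also depends on which 0 hr lysate is kept, and in opposite ways for the pair. With actin scaling, PDI-2 was at -0.55 without 0 hr replicate 1 and at -1.27 without 0 hr replicate 2. Derlin 1 was at -1.41 without 0 hr replicate 1 and at -0.33 without 0 hr replicate 2. In the contrast of the early with the late interval, translation efficiency gave -0.74 for PDI-2 (standard error 0.50, unadjusted p = 0.158 in edgeR) and -0.82 for Derlin 1 (standard error 0.56, unadjusted p = 0.153 in edgeR) with actin scaling, both at an adjusted p of 1.00. The intervals were thus not shown to differ.

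On the actin scale, translation efficiency was lower for the middle gene too. In CPM the ratio of actin itself was 1.00 and 1.22 for the lysates of 0 hr. It was 1.30 and 1.38 for those of 6 hr, and 1.38 and 1.64 for those of 12 hr. A higher ratio of actin lowers every ratio taken per actin, and which of them moved was not tested. The median log2 change of 20055 genes was -0.32 from 0 to 6 hr and -0.13 from 6 to 12 hr with actin scaling, and -0.05 and 0.04 with total counts. Set against that median, PDI-2 was at -0.54 and Derlin 1 at -0.58 from 0 to 6 hr with actin scaling, and at -0.54 and -0.60 with total counts. Of all genes, 14.1% had a lower change than PDI-2 and 12.7% a lower one than Derlin 1 on the actin scale. From 6 to 12 hr both were near the median, at -0.01 and 0.04 relative to it, with 49.4% and 54.7% of genes below them. In RNA the members stood further out, with 99.1% and 98.6% of 23721 genes below PDI-2 and Derlin 1 from 0 to 6 hr with actin scaling, and in RPFs 99.1% and 98.6% of 20414 genes were below them.

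**Figure D4:**
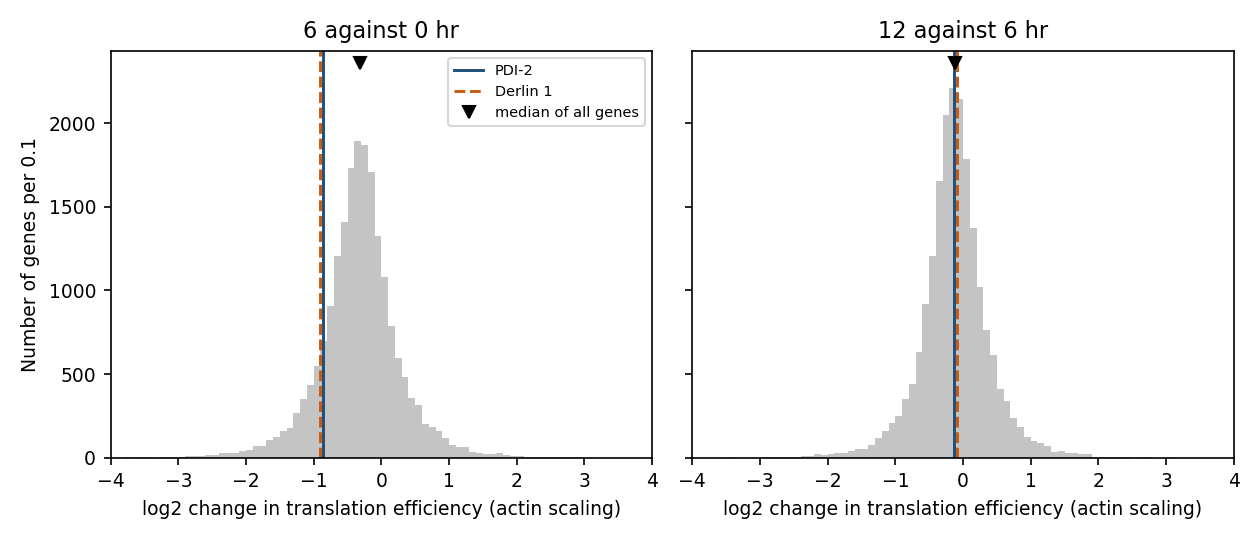
Number of genes (y axis) by log2 change in translation efficiency with actin scaling (x axis, bins of 0.1) from 0 to 6 hr (left) and from 6 to 12 hr (right) over 20055 genes, a few of which lie beyond the axis. Lines mark PDI-2 (-0.87 and -0.13) and Derlin 1 (-0.91 and -0.08), and the triangle marks the median (-0.32 and -0.13).

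The count of PDI-2 over that of Derlin 1 in the same library needs no scale at all. In RNAseq it was 0.725 and 1.93 for the libraries of 0 hr, 1.41 and 1.45 for those of 6 hr, and 1.38 and 1.33 for those of 12 hr. In ribo-seq it was 0.708 and 0.540 for the libraries of 0 hr, 0.817 and 0.653 for those of 6 hr, and 0.676 and 0.662 for those of 12 hr. The treated RNAseq libraries thus lay between the 2 libraries of 0 hr. With duplicates at 3 time points an exact permutation test cannot give a p under 0.0667, so none is used here. The log2 ratio differed between 12 and 0 hr by 0.20 in RNAseq and 0.11 in ribo-seq, beside an SD of 1.00 and 0.28 between the 0 hr duplicates, so the difference was smaller than the spread between the 0 hr duplicates.

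The 0 hr RNAseq duplicates differed on this pair in opposite directions. PDI-2 was 1.59 times higher in replicate 2 in CPM and Derlin 1 was 1.68 times higher in replicate 1. Fisher's exact test of the 4 counts gave an odds ratio of 2.66 (p = 3.55e-07, adjusted p = 2.13e-06 over the 6 pairs of duplicates), which sets these 2 lysates against counting error alone, with reads taken as independent molecules, and compares no conditions. The ribo-seq duplicates differed with odds ratios of 0.763 at 0 hr (adjusted p = 0.0246 in Fisher's exact test) and 0.80 at 6 hr (adjusted p = 0.0134 in the same exact test), and the other 3 pairs had adjusted p-values of 0.701 in this test. Over the 12063 genes that averaged 50 or more counts in the 0 hr RNAseq libraries, 78.2% had a smaller gap between the duplicates than PDI-2 and 83.4% a smaller one than Derlin 1. The lower counts of 0 hr replicate 1 (66 and 91) put PDI-2 between 25.3 and 41.6 CPM and Derlin 1 between 36.3 and 55.3 CPM (95% exact Poisson interval, counting error only).

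BIP2 (Zm00001d014993), an Hsp70 chaperone inside the ER, and its co-chaperone ERDJ3a (Zm00001d047726) give a frame for the ratio. In CPM the BIP2 ratio was 1.76 and 1.15 for the lysates of 0 hr, 1.36 and 1.25 for those of 6 hr, and 1.36 and 1.47 for those of 12 hr. That of ERDJ3a was 1.13 and 1.72, then 1.17 and 1.46, then 1.26 and 1.77. Both overlapped between 0 hr and either later time in CPM. Per actin BIP2 overlapped too, while ERDJ3a, at 1.12 and 1.41, then 0.899 and 1.06, then 0.918 and 1.08, had all 4 later lysates below both 0 hr lysates, the order seen per actin for PDI-2 and Derlin 1. The PDI-2 ratio taken over that of BIP2 in the same lysate, which removes the scale, was 1.19 ± 0.0984 (SD, n = 2) for 0 hr, 0.840 ± 0.0941 for 6 hr and 0.791 ± 0.0537 for 12 hr, with all 4 later lysates below both 0 hr lysates. Over BIP2, the same order held for the 6 hr lysates in 9.99% of all genes and for the 12 hr lysates in 15.5%. The Derlin 1 ratio over that of BIP2 was 2.83 ± 2.37 for 0 hr, 1.68 ± 0.485 for 6 hr and 1.60 ± 0.135 for 12 hr, with overlap. Over ERDJ3a the 6 and 0 hr lysates overlapped for PDI-2 and not for Derlin 1, the latter like 10.1% of genes, and the 12 and 0 hr lysates overlapped for both.

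Over the 12 libraries, the pattern most like that of PDI-2 was that of BIP2 (Pearson's r of 0.985 in log2 CPM, each library type centred on its mean), rank 1 of 12414 genes, and ERDJ3a was at rank 29 (r of 0.956). For Derlin 1, ERDJ3a was at rank 2 (r of 0.967) and BIP2 at rank 19 (r of 0.929). PDI-2 and Derlin 1 had an r of 0.939 with each other, which is rank 41 seen from PDI-2 and rank 12 seen from Derlin 1. Beyond the named genes, Zm00001d043762 was most like PDI-2 (r of 0.982) and Zm00001d020687 most like Derlin 1 (r of 0.971). In RNAseq, Zm00001d043762 was at 71.3 and 105 CPM at 0 hr and at 246 to 437 CPM later, and Zm00001d020687 at 101 and 95.9 CPM at 0 hr and at 255 to 343 CPM later. The 12 points share lysates, depth and 3 time points, so r is a description here, and 1% of the genes had an r above 0.870 with PDI-2 or above 0.835 with Derlin 1.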

How the data were processed

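The members and the gene lists were chosen with earlier results of these data known. Per the methods and the submitters' processing notes, reads were trimmed (cutadapt 1.16), cleared of noncoding RNA and aligned with Bowtie 1.2 to coding sequences (B73 RefGen_v4). The authors deposited the resulting counts per gene as raw counts. Reads that fit several genes were kept once, so counts may be shared between close relatives of a member. PCR duplicates were not stated to be removed, so counting intervals may be too narrow. There were 0 columns of values left unused.

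Changes were tested with edgeR 4.0.16 (R 4.3.3, quasi-likelihood, filterByExpr, prior count of 0.125) over all genes, with Benjamini-Hochberg adjustment and a threshold of 0.05. RNA and RPF fits held 6 libraries with time point as the factor. Translation efficiency was the term by which time effects differ between ribo-seq and RNAseq, in a model of 12 libraries with a lysate term. Libraries were scaled to actin, as in the methods, and alternatively to total counts (CPM), TMM or alpha tubulin 3. Further alternatives were DESeq2 1.42.0, other filters, the replicate number as a block, 2 time points alone, no lysate term, and fits without each library. The standard error is the log2 change over the square root of F. Likeness used log2(CPM + 0.5) over genes averaging 50 or more counts in each library type, and 0.5 was also added before genes without overlap were counted. The code was tested on simulated data. The gene table used here (assembly Zm-B73-REFERENCE-NAM-5.0) matched 0 of these identifiers, so root markers, the planned ER folding and ERAD list and promoter motifs were not analysed here, and names are those of the study. Genes named are the members, actin and alpha tubulin 3 as standards of the study, and PAB2, added here as a scale. The others are the study's UPR genes with a complete identifier and the gene most like each member.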

Additional observations from a re-analysis of the deposited data

How the results depend on the processing

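With 2 lysates per time point, several calls depend on the scale or, with actin scaling, on single libraries. For Derlin 1 RNA from 0 to 6 hr the log2 change passed at 1.99 with total counts, 1.98 with TMM, 1.83 with alpha tubulin 3, 1.94 without a filter on low counts, and 1.93 and 1.95 in DESeq2 with the actin factors and its own. These fits called 31, 27, 26, 64, 42 and 65 genes higher in turn, of 34021 without the filter and 23721 otherwise. For RPFs from 0 to 6 hr, PDI-2 passed at 1.63 with total counts, 1.63 with TMM and 1.65 in DESeq2 with its own factors, and Derlin 1 at 1.39 in DESeq2 with its own factors. Of 20414 genes, 14 were called higher with total counts, 15 with TMM and 54 in DESeq2 with its own factors. From 0 to 12 hr, PDI-2 RPFs passed at 1.60 with total counts, 1.61 with TMM, and 1.62 and 1.61 in DESeq2 with the actin factors and its own, and Derlin 1 RPFs at 1.52 and 1.47 in DESeq2. These fits called 30 genes higher with total counts, 30 with TMM, and 25 and 69 in DESeq2, of 20414 genes. Why the calls differ between settings was not tested.

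From 6 to 12 hr, uncalled values near 0 changed sign. PDI-2 RNA was at -0.068 with total counts, -0.059 with TMM and -0.047 in DESeq2 with its own factors, and its RPFs at -0.034, -0.021 and -0.040. Its translation efficiency was at 0.035 with total counts, 0.041 with TMM, 0.22 with alpha tubulin 3 and 0.000621 in DESeq2 with its own factors, and that of Derlin 1 at 0.083, 0.089, 0.27 and 0.049.

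Without each library or lysate in turn, PDI-2 RNA ranged from 2.24 to 2.36, from 0.31 to 0.43 and from 2.62 to 2.73 for 6 against 0, 12 against 6 and 12 against 0 hr, and Derlin 1 RNA from 1.38 to 2.68, from 0.39 to 0.51 and from 1.83 to 3.13. PDI-2 RPFs ranged from 1.09 to 1.71, from 0.12 to 0.35 and from 1.33 to 1.94, and Derlin 1 RPFs from 0.92 to 1.39, from 0.14 to 0.60 and from 1.42 to 1.64. PDI-2 translation efficiency ranged from -1.27 to -0.55, from -0.27 to 0.0098 and from -1.40 to -0.68, and that of Derlin 1 from -1.41 to -0.33, from -0.28 to 0.12 and from -1.497 to -0.42. A lone library was assumed to vary like the others.

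The labels number the replicates, but no source pairs lysates of different time points by number. Differences between duplicates correlated across 20055 genes at -0.24 to 0.07 between time points in RNAseq and at -0.01 to 0.28 in ribo-seq. For ribo-seq less RNAseq, which the block adjusts in translation efficiency, they correlated at 0.02 to 0.20. With no stated pairing and correlations this low, the number was not taken as a pairing. With the replicate block, translation efficiency from 0 to 12 hr passed at -0.998 for PDI-2 (adjusted p = 0.0312 from edgeR) and -0.99 for Derlin 1 (adjusted p = 0.0448 from edgeR), with 356 genes called in place of 0. The block changed no other call of the members.

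The number of genes called from 0 to 6 hr ranged over the alternatives from 10 to 452 in RNA (22 in the reported fit), from 6 to 666 in RPFs (55) and from 0 to 1 in translation efficiency (0). From 6 to 12 hr it ranged from 0 to 148 (0), from 0 to 13 (10) and from 0 to 1 (0). From 0 to 12 hr it ranged from 23 to 3257 (69), from 10 to 182 (57) and from 0 to 356 (0).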
